A study of Mus musculus with 24 samples.

Results

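Of 24 bulk RNA-seq libraries from mouse prefrontal cortex, 12 were set side by side by the level of 3 neuronal activity genes. The libraries were ordered by an activity score, the mean of log2(normalised read count + 1) of Fos, Junb and Egr1. The 6 highest and the 6 lowest libraries were compared across all other genes, whatever arm of the study they came from, with the 12 in the middle kept apart. The comparison is therefore a description of libraries selected on 3 transcripts, and no test is given for it. Tests were run only in the 12 middle libraries, which the high and low sets do not use, and between the arms of the study.

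All mice were of the strain C57BL/6J and were sampled at postnatal day 40. The wild-type arm (WT) received vehicle. The 3 other arms carried the heterozygous allele Dyrk1a+/I48X (HT) and received vehicle, lithium (used to stabilise mood) or fluoxetine (an antidepressant that blocks serotonin reuptake). Each arm held 3 libraries of each sex, which makes 8 groups of 3. The sources used here give neither doses nor how long treatment lasted. There was no WT arm on either drug in the samples analysed. No label says that the libraries came from separate animals, and a p-value here reflects the variation among these libraries alone, some of which may be technical.

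Synaptic activity raises calcium in a neuron and activates kinases that act on transcription factors already present, among them CREB and SRF. Within minutes these switch on immediate early genes, which need no new protein for their transcription. Some of them encode transcription factors (the Fos, Jun, Egr and Nr4a families) and others act directly at synapses or on signalling (Arc, Dusp1, Gadd45b). A later group, including secreted peptides and growth factors such as Bdnf, follows over hours, and inhibitors of ERK signalling limit the response.

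The upstream sequence of Fos, Nr4a1, Egr4 and Dusp1 is shown because CREB and SRF are the factors this programme is known for. Sequences are from RefSeq on GRCm38.p6 and cover the 250 bases before a RefSeq transcript start, written 5′ to 3′ on the strand of the gene. For Nr4a1 and Dusp1 this start lies inside the longer span that GENCODE gives the gene. Capitals mark the CRE core TGACG on either strand, which also lies within the full CRE palindrome TGACGTCA. Fos is a ranking gene, and Nr4a1, Egr4 and Dusp1 are genes that separated the sets.
Fos (chr12:85473640-85473889, plus strand): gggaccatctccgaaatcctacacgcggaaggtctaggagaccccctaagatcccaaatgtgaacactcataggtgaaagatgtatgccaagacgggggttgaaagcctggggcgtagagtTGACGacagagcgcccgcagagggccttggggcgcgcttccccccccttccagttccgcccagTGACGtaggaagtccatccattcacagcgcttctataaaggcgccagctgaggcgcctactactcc
Nr4a1 (chr15:101266596-101266845, plus strand): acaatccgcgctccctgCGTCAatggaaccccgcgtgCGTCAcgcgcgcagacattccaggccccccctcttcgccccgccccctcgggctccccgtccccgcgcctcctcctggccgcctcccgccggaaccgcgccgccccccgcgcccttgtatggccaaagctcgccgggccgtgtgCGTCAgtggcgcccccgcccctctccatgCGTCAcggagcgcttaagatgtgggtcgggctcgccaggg
Egr4 (chr6:85513590-85513839, minus strand): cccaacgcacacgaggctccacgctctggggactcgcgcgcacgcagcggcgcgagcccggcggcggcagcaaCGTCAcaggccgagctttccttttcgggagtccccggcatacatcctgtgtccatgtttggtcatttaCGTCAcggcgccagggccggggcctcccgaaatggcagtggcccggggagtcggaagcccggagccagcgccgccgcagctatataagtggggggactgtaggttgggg
Dusp1 (chr17:26508473-26508722, minus strand): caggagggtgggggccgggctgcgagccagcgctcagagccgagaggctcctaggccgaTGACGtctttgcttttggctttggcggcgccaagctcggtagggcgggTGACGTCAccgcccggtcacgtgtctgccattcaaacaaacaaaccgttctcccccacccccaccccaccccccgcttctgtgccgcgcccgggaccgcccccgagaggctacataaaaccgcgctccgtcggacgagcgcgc
The Fos window held 2 CRE cores, that of Nr4a1 held 4 and that of Egr4 held 2. The Dusp1 window held the full palindrome, which matches the core on each strand, and 1 further core. Of the windows not shown, those of Junb, Ccn1 and Fosb held 1 core each, and those of Gadd45b, Gadd45g and Ptgs2 held 0. The windows shown therefore do not stand for all genes searched. Among Fos, Junb and the 13 activity-list genes called below, 13 had a window in the RefSeq table, and 10 of these 13 held a CRE core, against 19.8% of the 27025 genes in the table. The full palindrome was in 1 of 13 (1.77% of all genes). A CArG box, the SRF motif searched by name on both strands, was in 1 of 13 (Egr2; 1.62% of all genes), and the AP-1 letters TGANTCA were in 1 of 13 (Csrnp1; 7.82%). Such a match is a run of letters, not a measured binding site, and the absence of one says only that the letters are not in this window.

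The ranking genes set the order and are given as levels only. Fos encodes a subunit of the AP-1 transcription factor. Its normalised read count was 1286 to 2894 (median 1917) in the 6 highest libraries, 743 to 1286 (median 967) in the 12 middle ones and 316 to 743 (median 639) in the 6 lowest. Junb, a partner of Fos in AP-1, stood at 2039 to 3231 (median 2739), 1736 to 2520 (median 2001) and 881 to 1803 (median 1386). Egr1, a zinc finger factor, stood at 8223 to 12038 (median 10376), 6620 to 11636 (median 7829) and 5334 to 7809 (median 6687). Fos alone would have chosen the same 12 libraries. For Junb and Egr1 some middle libraries lay within the range of the highest 6, as the plot of the ranking genes by library shows.

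**Figure D1:**
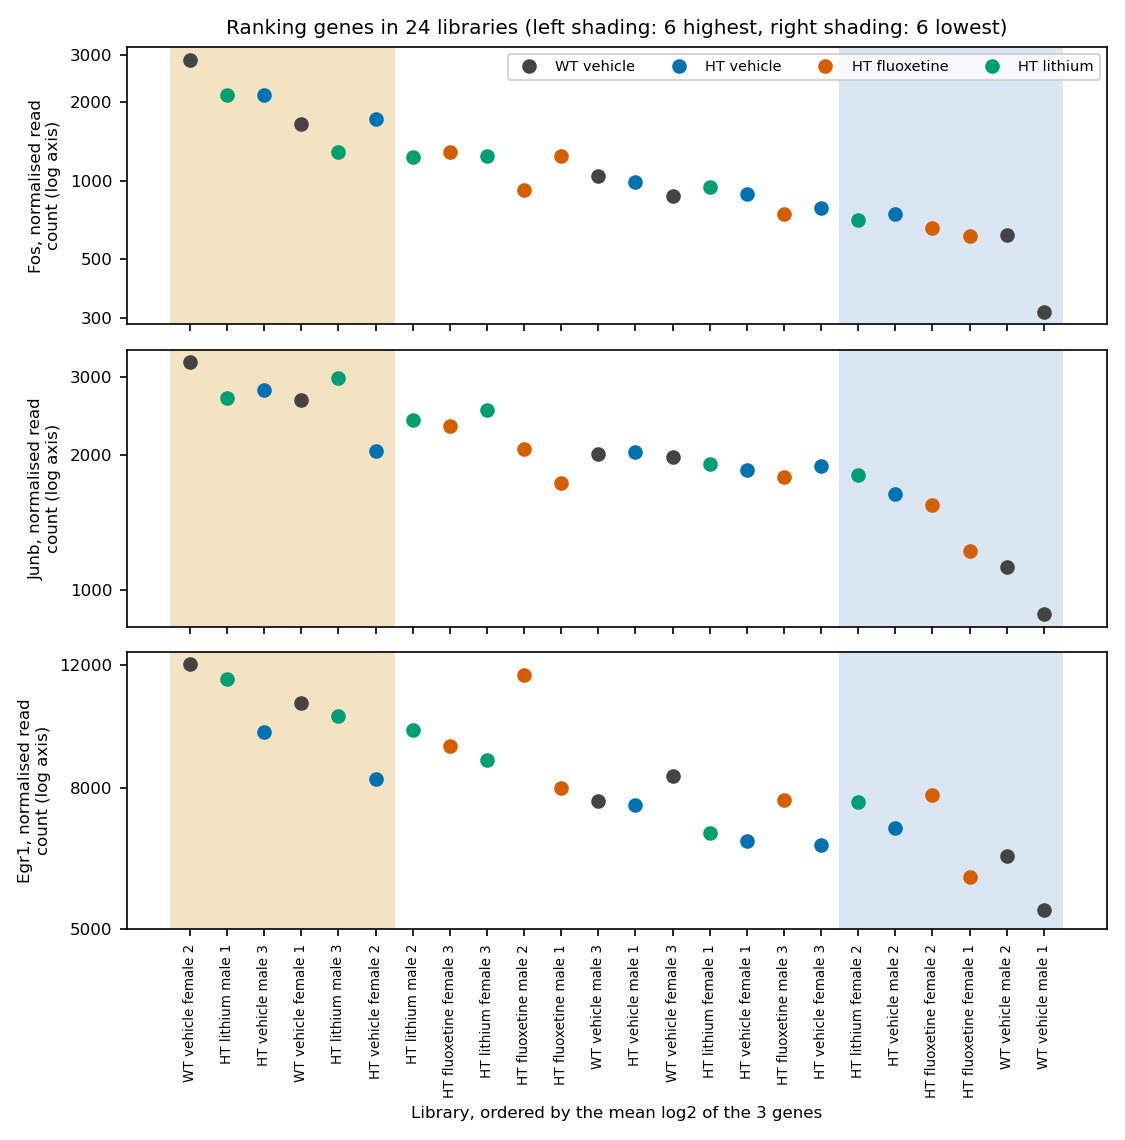
Normalised read counts of Fos, Junb and Egr1 (log axes) in each of 24 libraries, ordered from the highest to the lowest mean log2 of the 3 genes and coloured by arm. The highest library, WT vehicle female 2, holds 2894 Fos reads and the lowest, WT vehicle male 1, holds 316.

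The score of the highest library was 12.24 (WT vehicle female 2). The other 5 were HT lithium male 1 (11.98), HT vehicle male 3 (11.91), WT vehicle female 1 (11.81), HT lithium male 3 (11.73) and HT vehicle female 2 (11.58). The lowest score, 10.16, was that of WT vehicle male 1, followed by WT vehicle male 2 (10.68), HT fluoxetine female 1 (10.68), HT fluoxetine female 2 (10.97), HT vehicle male 2 (10.998) and HT lithium female 2 (11.06). The boundaries are thin. HT vehicle female 2 entered the high set at 11.5838 and HT lithium male 2 missed it at 11.5776. HT lithium female 2 entered the low set at 11.0607 and HT vehicle female 3 missed it at 11.0636. WT vehicle gave 2 libraries to each set, so the extremes of the score lie within a single arm. HT fluoxetine gave 0 high and 2 low libraries, while HT vehicle and HT lithium gave 2 high and 1 low each. The high and low sets each held 3 female and 3 male libraries. Batch P40_L2 supplied 2 of the high and 1 of the low libraries.

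Libraries differed in transcripts typical of the olfactory bulb. The bulb score is the mean log2 of Cdhr1, Doc2g and Eomes, genes of mitral and tufted cells of the olfactory bulb. It was 5.64 to 11.97 (median 11.79) in the high set, 5.56 to 12.29 (median 8.99) in the middle and 4.19 to 11.97 (median 6.27) in the low set. Above 11 lay 4 of the 6 high, 1 of the 12 middle and 1 of the 6 low libraries. Over the 24 libraries the activity and bulb scores had a Pearson r of 0.51 and a Spearman rho of 0.53, given as a description of libraries that share tissue and normalisation. Every difference between the sets below is therefore adjusted for the bulb score unless it is said to be unadjusted. In bulk tissue, more cells of a type and more RNA per cell cannot be told apart.

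**Figure D2:**
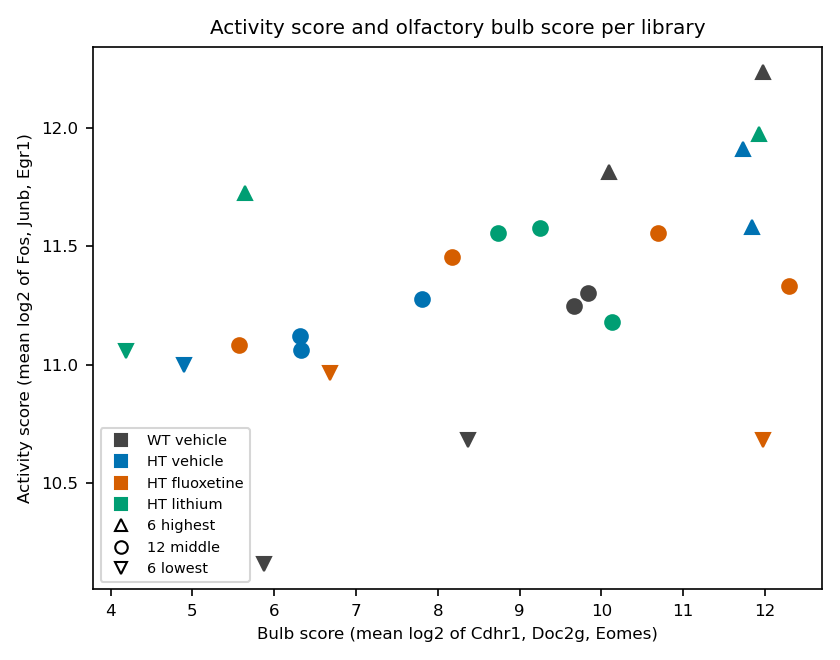
Activity score (mean log2 of Fos, Junb and Egr1) against the bulb score (mean log2 of Cdhr1, Doc2g and Eomes) in 24 libraries, coloured by arm, with symbols for the 6 highest, 12 middle and 6 lowest. Of the high libraries 4 lie above a bulb score of 11, where only 1 low library lies, HT fluoxetine female 1.

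Recovered depth was 24133344 to 35940460 reads per library and overlapped between the sets. Slc17a7, the vesicular glutamate transporter of cortical excitatory neurons, was at 28907 to 53751 normalised reads in the 24 libraries, so this defining marker of the labelled tissue was present throughout. The summed level of 16 excitatory neuron markers was 52259 to 83804 (median 59357) in the high set and 57292 to 80798 (median 80137) in the low set. That of 14 bulb cell markers was 10523 to 68864 (median 53158) and 9252 to 66891 (median 11901), with 1 marker at 0 in some library of each set. The 13 striatal projection neuron markers summed to 9213 to 23888 (median 9591) and 8882 to 16956 (median 14449). The 12 interneuron markers, shared in part with bulb interneurons, summed to 35222 to 57507 (median 50753) and 35166 to 51627 (median 39292). None of the markers in the 11 cell type lists met the call rule below, which called 0.19% of genes higher and 0.101% lower. At such low shares, the lack of calls says little about cell makeup. Bulb-adjusted differences of at least 0.3 in size were found for 5 of 14 bulb markers (35.7%, list range -0.66 to 0.95). The same held for 4 of 11 choroid plexus and meninges markers (36.4%, lowest -1.04) and 3 of 13 striatal markers (23.1%). The share over all genes was 6.52%, and the other cell type lists had 0. The part that unequal cell makeup beyond the bulb score has in the differences was not tested.

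A gene was called when its bulb-adjusted difference was at least 0.3 on the log2 scale and the adjusted values of the 6 high and 6 low libraries did not overlap. Of 16822 genes with a mean of at least 10 reads, 32 were called higher in the high set (0.19%) and 17 lower (0.101%). Of the 32, 13 belonged to 4 lists of activity-regulated genes, of which 75 genes could be tested. Of these 75 genes, 68 had a positive bulb-adjusted difference, against 8195 of all 16822, and 0 were called lower. Some of the 68, such as Rgs4 (-0.25) and Nrn1 (-0.30), had a negative difference without the bulb score. The lists were assembled with earlier results of these data known, so these counts are read only beside the background. Immediate early transcription factors had 6 of 22 called (median difference 0.43) and immediate early effectors 5 of 23 (median 0.36). Secondary and secreted genes had 2 of 20 (median 0.18) and ERK feedback inhibitors 0 of 10 (median 0.14), against a median of -0.003 over all genes. Without the bulb score the medians of the 4 lists, in the same order, were 0.62, 0.49, 0.02 and 0.02, against 0.002 over all genes. The shift of the last 2 lists thus rests largely on the bulb adjustment. Leaving out 1 library at a time gave 35 to 188 genes higher and 23 to 121 lower. The highest counts came without HT fluoxetine female 1, the low library with bulb transcripts (188 and 121), and without HT lithium male 3 (107 and 80). The number of list genes called was 21 rather than 13 without HT fluoxetine female 1, where 1.12% rather than 0.19% of all genes were called higher.

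**Figure D3:**
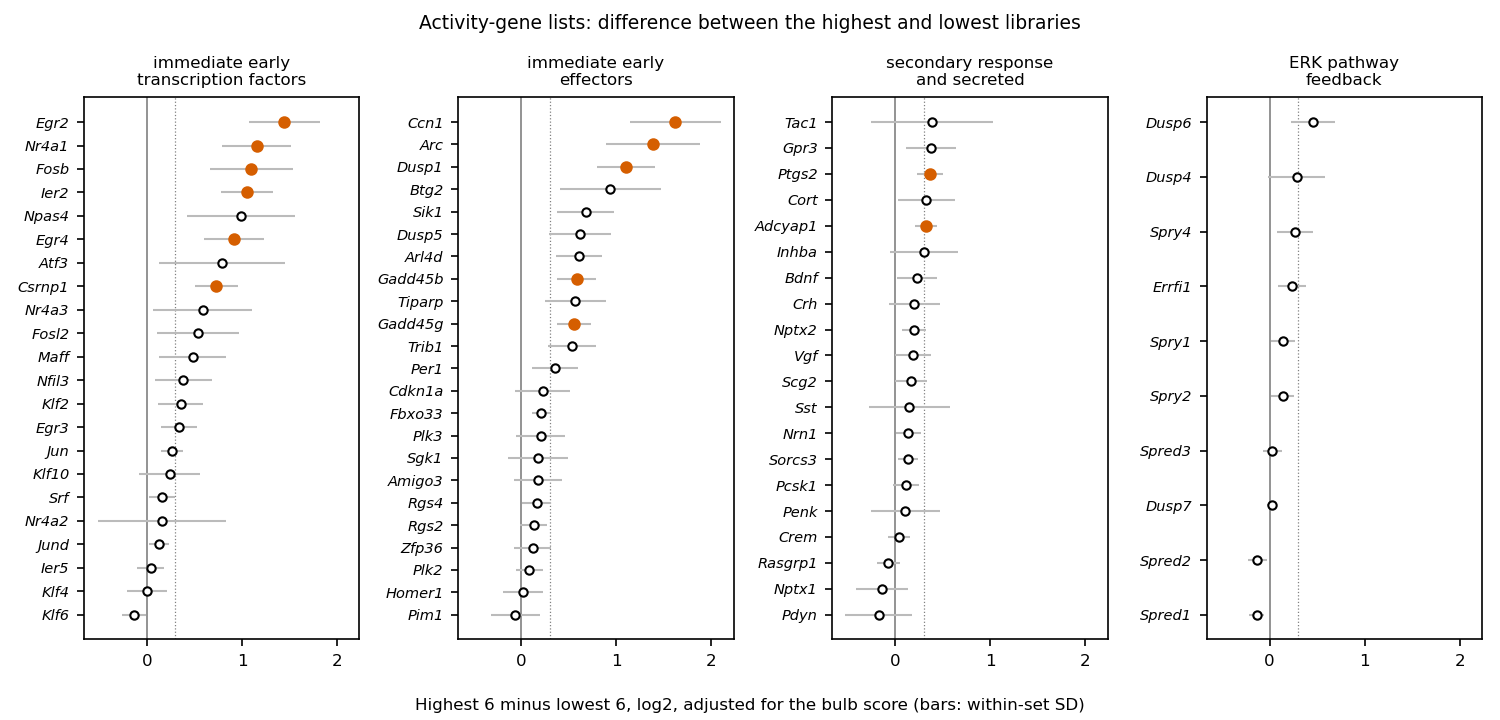
Bulb-adjusted log2 difference between the 6 highest and 6 lowest libraries for the 75 genes of 4 activity lists, with the within-set SD as bars. Filled points mark the 13 called genes, the dotted line marks 0.3, and the differences run from -0.18 (Pdyn) to 1.62 (Ccn1).

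Among the transcription factors, Egr2, a zinc finger factor related to Egr1, stood furthest apart. Its normalised read count was 305 to 653 (median 512) in the high set, 139 to 269 (median 203) in the low set and had a median of 284 in the middle. The 6 high libraries all lay above the 6 low ones before any adjustment, and the adjusted difference was 1.45 (within-set SD 0.38, n = 6 and 6), or 2.72-fold. Nr4a1, an orphan nuclear receptor, stood at 4558 to 7265 (median 5188) against 1458 to 3153 (median 2702), again without overlap, with an adjusted difference of 1.15 (SD 0.36). Ier2, a small nuclear protein, stood at 302 to 500 (median 385) against 148 to 239 (median 194), a difference of 1.05 (SD 0.28). For these 3 factors the middle libraries had medians between those of the sets. The same held for 10 of the 13 called list genes, for 23 of all 32 genes called higher and for 12 of the 17 called lower.

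Fosb, the Fos relative whose truncated product accumulates with repeated stimulation, stood at 429 to 1968 (median 931) in the high set and at 206 to 472 (median 284) in the low set. These ranges overlap, and the difference of 1.65 without the bulb score became 1.10 (SD 0.43) with it. Egr4 stood at 682 to 1363 (median 1113) against 500 to 771 (median 687), an overlap of raw values that the adjustment removed, and its adjusted difference was 0.92 (SD 0.32). Csrnp1, a nuclear protein induced by axin, stood at 266 to 423 (median 306) against 183 to 393 (median 251). Its raw values overlapped broadly, and its difference was 0.35 without and 0.73 (SD 0.22) with the bulb score.

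The other 16 tested transcription factors missed the call. Npas4, a factor tied closely to synaptic activity, stood at 992 to 2453 (median 1236) against 329 to 1168 (median 696), with a difference of 0.99 and a within-set SD of 0.57. Nr4a3 had a difference of 0.59 (SD 0.52) and Jun, a Fos partner, one of 0.26 (SD 0.12; 0.45 unadjusted). Atf3, a stress-induced factor, had 1.92 without and 0.79 with the bulb score, and Fosl2 had 1.15 and 0.54. Klf6 had the lowest difference of the list, -0.13.

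Among the effectors, Ccn1, a secreted matrix protein, stood at 132 to 330 (median 230) in the high set and at 52.2 to 146 (median 95.9) in the low set. The ranges met at their edges, and the adjusted difference was 1.62 (SD 0.48; 1.28 unadjusted), or 3.08-fold. The lowest values of Ccn1, 52.2 and 64.1, were those of the low HT fluoxetine libraries, an arm with 0 in the high set. Its call was lost with 8 libraries in each set and kept with arm as a further term. Arc, which acts at synapses on AMPA receptor uptake, stood at 5410 to 9220 (median 7938) against 1595 to 6134 (median 3786), a difference of 1.39 (SD 0.49). Only HT lithium female 2 among the low libraries reached into the high range of Arc. Dusp1, a phosphatase of MAP kinases, stood at 1079 to 1619 (median 1223) against 510 to 1006 (median 618) and did not overlap, with a difference of 1.10 (SD 0.31).

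Gadd45g and Gadd45b, proteins linked to stress signalling and DNA demethylation, differed less. Gadd45g stood at 328 to 410 (median 369) against 211 to 320 (median 255), a difference of 0.56 (SD 0.18) without overlap. Gadd45b stood at 291 to 507 (median 391) against 249 to 316 (median 282), a difference of 0.59 (SD 0.21) with raw ranges that overlapped. Effectors that missed the call included Btg2, an antiproliferative gene, at 0.94 (SD 0.53), Sik1, a kinase, at 0.68 (SD 0.30; 1.05 unadjusted) and Arl4d, a small GTPase, at 0.61 (SD 0.24). Homer1, a postsynaptic scaffold gene, had 0.02 (SD 0.21), and -0.20 unadjusted. The value covers all transcripts of Homer1, and its short activity-induced form was not measured on its own.

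**Figure D4:**
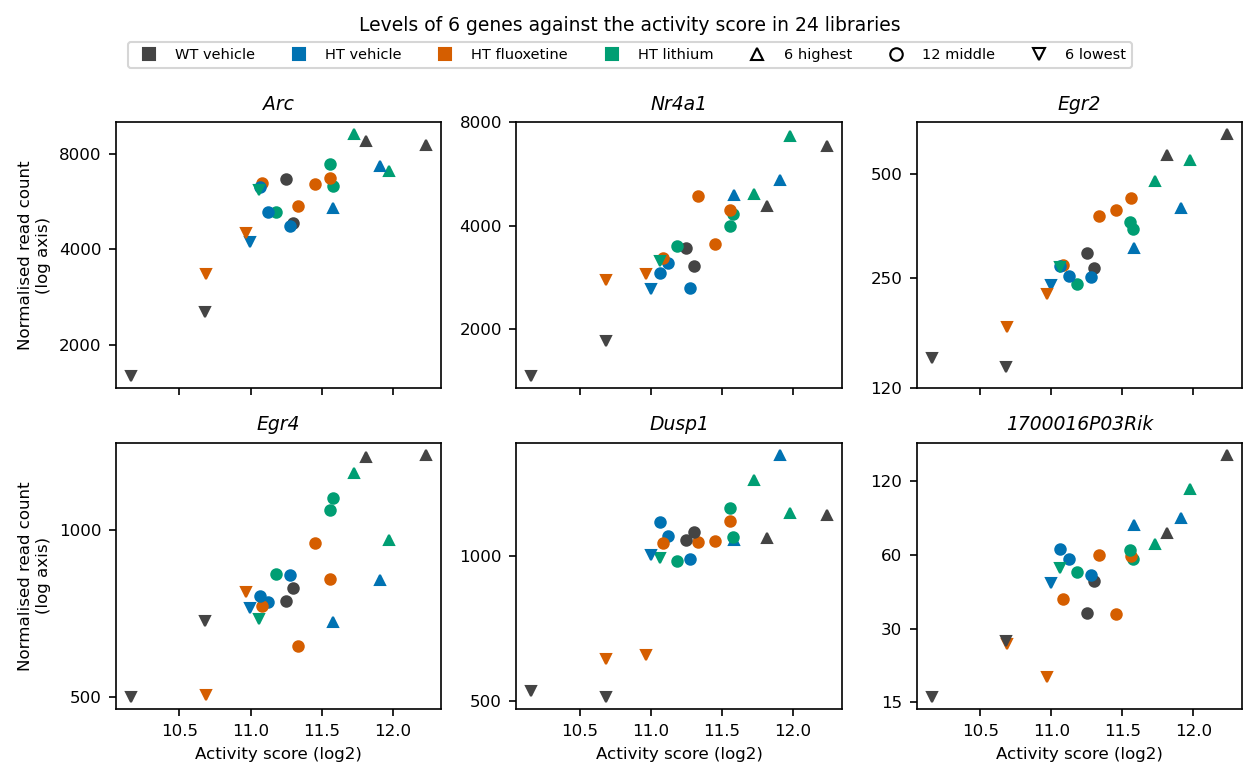
Normalised read counts (log axes) of Arc, Nr4a1, Egr2, Egr4, Dusp1 and 1700016P03Rik against the activity score in 24 libraries, coloured by arm, with symbols for the 3 sets. The 6 highest and 6 lowest libraries do not overlap for Nr4a1, Egr2, Dusp1 and 1700016P03Rik.

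Of the later genes, Ptgs2 and Adcyap1 were called, and both calls rest on the bulb adjustment. Ptgs2, the inducible prostaglandin synthase, stood at 223 to 369 (median 280) in the high set and at 209 to 348 (median 284) in the low set, and its difference was 0.07 without and 0.36 (SD 0.14) with the bulb score. Adcyap1, which encodes the peptide PACAP, stood at 623 to 997 (median 717) against 595 to 897 (median 703), with 0.04 and 0.32 (SD 0.12). The raw values of the sets cover nearly the same range for both genes. Bdnf, the neurotrophin, had -0.16 without and 0.22 (SD 0.21) with the bulb score, and Vgf, a secreted neuropeptide precursor, had -0.14 and 0.19 (SD 0.19). Inhba, a subunit of activin, went the other way, from 0.77 to 0.30 (SD 0.35), and so did Scg2, a granin, from 0.50 to 0.17 (SD 0.17). Among the ERK feedback inhibitors Dusp6, a phosphatase of ERK, had the highest value, 0.46 (SD 0.23), against 0.17 unadjusted.

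Of 18 other lists none had a called member, which is near the background of 0.19% of all genes called higher and 0.101% lower. Their medians ran from -0.07 (11 microglia markers) to 0.25 (5 red blood cell genes), and single members spread more widely. The upstream list of 21 ERK, CREB and SRF pathway genes had a median of -0.02, with 5 positive differences. The 14 glucocorticoid-induced genes, which follow stress hormone, had a median of -0.003. Of these, 2 differed by at least 0.3 in size, and the lowest difference was -0.42. The 12 heat shock genes had 0.06, and the 15 circadian clock genes had -0.05. The 18 glutamate receptor and postsynaptic genes had 0.02.

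Outside the lists, 1700016P03Rik had the largest difference of the named genes. It is a noncoding transcript (ENSMUSG00000085609, chr11:75172560-75177633 on GRCm38, plus strand), and the RefSeq hairpins of Mir212 and Mir132 lie inside it. Its normalised read count was 66.4 to 153 (median 82.4) in the high set, had a median of 54.4 in the middle and was 15.8 to 52.9 (median 26.4) in the low set. The sets did not overlap, and the difference was 1.65 (SD 0.56), or 3.14-fold. The 2 mature miRNAs that name this locus are shown because they share a seed, in capitals (bases 2 to 8).
miR-212-3p: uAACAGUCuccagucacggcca
miR-132-3p: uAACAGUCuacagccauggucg
Both carry the seed AACAGUC. The sequences are from RefSeq, and the miRNAs themselves were not measured, since the kit selects polyadenylated RNA.

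The other genes called higher were a different kind of set. The remaining named ones with a mean of at least 50 were Gm8797 (0.88), Gm12481 (0.75) and A630089N07Rik (0.39), for which no function is given here. Alkal2, a protein-coding gene named below for its low p in the middle libraries, was also called (0.77; 0.10 unadjusted), at a mean of 25.8. The 19 genes called higher outside the activity lists had a median level of 28.7 normalised reads, against 343 for the 13 list genes and 505 for all genes tested. These are reads not divided by length, so they say how many reads stand behind a value and not how strongly a gene is expressed. Of the 17 called lower, the named ones were Gm10635 (-0.57), Rxfp3 (-0.49), Gm30238 and Gm17276 (-0.43 each), Cd86 and Map10 (-0.36 each), AA986860 (-0.32) and C130036L24Rik (-0.30). Without the bulb score 5 of the 17 stayed called. Unadjusted, the differences were -0.15 for Rxfp3, -0.07 for AA986860 and -0.06 for Map10. The raw median of Map10 was 89.1 in the high and 86.7 in the low set, so its call rests on the adjustment. Of the genes called higher, Gm12481 had 0.30 unadjusted. Rxfp3 encodes a relaxin family peptide receptor and Cd86 a costimulatory protein of myeloid cells. Cd86 stood at 45.6 to 59.9 (median 54.3) in the high set and at 55.3 to 75.7 (median 60.3) in the low set, with overlap.

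Because bulb content and the sets go together, the sets were also compared within bulb levels, a comparison chosen after seeing the data. Above a bulb score of 11 there were 4 high libraries and 1 low one, and below 7 there were 1 high and 4 low, so each comparison has a single library on a side. Genes that differed by at least 0.3 without overlap in the same direction at both levels numbered 114 upward (0.678%) and 75 downward of 16822. Of the 13 called list genes 11 were among the 114, all but Ptgs2 and Adcyap1, and so were 17 of the 19 other genes called higher. The comparison uses 10 of the 12 libraries that made the calls, so a called gene is likely to pass it, and the counts are no independent support for either group. Arc differed by 1.07 among bulb-rich and by 1.32 among bulb-poor libraries, Nr4a1 by 1.11 and 1.03, Egr2 by 1.33 and 1.15, Dusp1 by 1.06 and 0.93, and 1700016P03Rik by 1.95 and 1.15. Without any bulb term in the model, 5 of the 13 list genes stayed called (Dusp1, Ier2, Gadd45g, Egr2 and Nr4a1), of 21 called higher.

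The 12 middle libraries allow a test, since neither set used them, but their scores cover only 0.51 of the 2.08 log2 units that the 24 libraries span. With limma, the slope on the activity score, adjusted for the bulb score, passed an adjusted p of 0.05 for 0 of 16822 genes (0%), and 779 genes (4.63%) had an unadjusted p under 0.05. With edgeR on recovered reads the numbers were 0 and 745. The median standard error of a slope was 0.27 log2 per unit of score.

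The slopes of the list genes are given as values beside those of all genes. All 13 called list genes had a positive slope, with a median of 0.59, against 50.9% of all genes and a median of 0.007. Of the 19 other genes called higher, 6 had a positive slope, with a median of -0.42. Over whole lists, slopes were positive for 16 of 22 transcription factors (median 0.43), 16 of 23 effectors (0.31), 18 of 20 secondary genes (0.43) and 9 of 10 ERK feedback genes (0.17). Lists outside the activity groups leaned both ways. Positive slopes were found for 14 of 16 excitatory neuron markers (median 0.47) and 10 of 12 heat shock genes (0.20). Cytosolic ribosomal protein genes had 3 of 20 (-0.18) and endothelial and pericyte markers 1 of 12 (-0.12). A positive share above that of all genes is thus not particular to the activity lists. Genes of a list rise and fall together within a library, so these counts do not stand for independent observations. Egr4 had the lowest p of the list genes, with a slope of 1.31 (SE 0.26) and a limma adjusted p of 0.82. Egr2 had a slope of 1.18 (SE 0.33), Dusp6 of 0.85 (SE 0.26) and Ptgs2 of 0.84 (SE 0.25), and Bdnf, whose unadjusted difference between the sets was -0.16, had 0.70 (SE 0.30). The lowest p of all genes was that of Gm5417, with a slope of -9.35 (SE 1.40) and a limma adjusted p of 0.192. The other 9 of the 10 genes with the lowest p outside the lists were Liph, Snhg5, Loxl1, Pcdhgb4, Fastkd5, Alkal2, Inmt, Gm21860 and Egf, each with a limma adjusted p of 0.82.

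**Figure D5:**
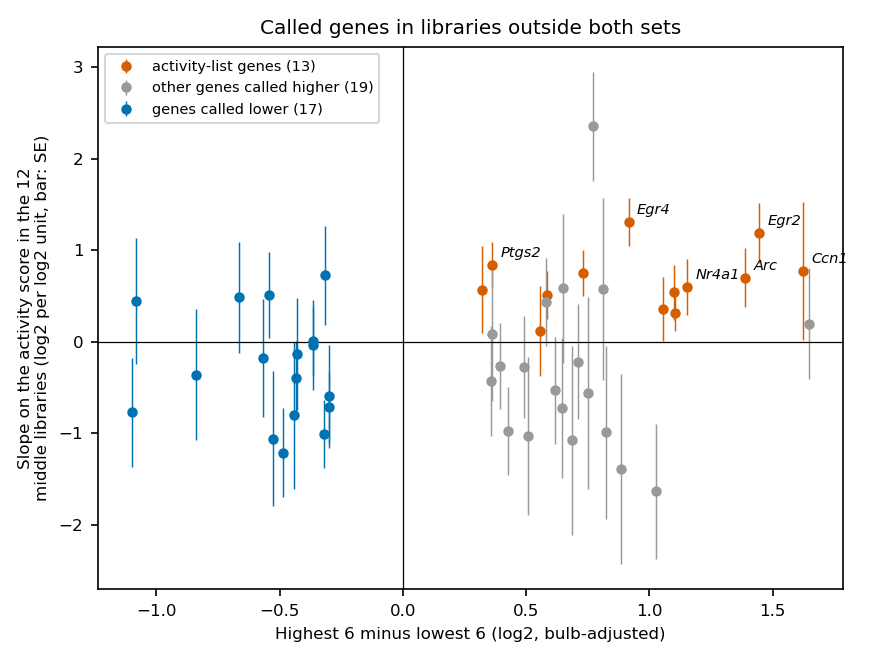
Slope on the activity score in the 12 middle libraries (log2 per log2 unit, bars are the SE) against the bulb-adjusted difference between the 6 highest and 6 lowest libraries, for the 49 called genes. All 13 activity-list genes lie above 0 on the vertical axis, as do 6 of the 19 other genes called higher.

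Over all 24 libraries, the genes whose log2 level followed the score most closely were Egr2 (Pearson r 0.94), Nr4a1 (0.94) and 1700016P03Rik (0.88). Arc (0.87), Ier2 (0.85), Fosb (0.83), Dusp1 (0.81) and Egr4 (0.80) came next. Of the 20 genes with the highest r, 16 were members of the activity lists, which make up 0.446% of the genes tested. The 4 others were 1700016P03Rik, Etv3, Rasl11a and Slc9a3r1. The points share the dissection, the normalisation and the 12 libraries that made the sets, so the correlations carry no p. No bulb score entered these correlations or their ranking, unlike the slopes in the middle libraries. Without it, Ptgs2 (0.26), Adcyap1 (0.12) and Bdnf (-0.08) followed the score little or not at all. The bulb-adjusted slopes of these genes in the middle libraries were 0.84, 0.57 and 0.70 in the same order. Whether the bulb score or the choice of libraries makes this difference was not tested.

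The study's own question is whether genotype, drug or sex changed the cortex, and the ranking did not use these labels. In HT vehicle Dyrk1a itself was at 2355 ± 61.2 normalised reads and in WT vehicle at 2200 ± 90.8 (SD, n = 6 each), so its level does not mark the libraries labelled HT by a lower count. Fos was at 1232 ± 929 in WT vehicle, 1206 ± 571 in HT vehicle, 910 ± 293 in HT fluoxetine and 1255 ± 482 in HT lithium. The ranges of the 4 arms overlapped. In limma the log2 difference of Fos was 0.19 (SE 0.34) for HT vehicle against WT vehicle, -0.35 (SE 0.34) for fluoxetine against HT vehicle and 0.10 (SE 0.34) for lithium against HT vehicle. Those of Junb were 0.16, -0.21 and 0.22 (SE 0.19 each), and those of Egr1 were -0.09, 0.12 and 0.25 (SE 0.13 each). Males minus females gave -0.10 (SE 0.24) for Fos, -0.09 (SE 0.13) for Junb and 0.04 (SE 0.09) for Egr1. These values pool the 4 arms, and none of the arm fits in this paragraph carries a bulb score. The sex difference in WT vehicle minus that in HT vehicle was -1.58 (SE 0.69) for Fos and -1.16 (SE 0.38) for Junb. For Egr1 it was -0.84 (SE 0.27), and the limma adjusted p was 0.996 for each gene. The fluoxetine and lithium comparisons share the HT vehicle libraries.

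At a limma adjusted p of 0.05, HT vehicle against WT vehicle called 0 of 16825 genes (0%; 455 at an unadjusted p under 0.05, 0 called by edgeR or DESeq2, but 5 once the bulb score entered the model). Fluoxetine called 2 (0.0119%; 4 with the bulb score and 16 with DESeq2), lithium called 2 (0.0119%) and sex called 14 (0.0832%). None of the 3 ranking genes and 0 of the 75 list genes was called by limma in any of the 4 comparisons, which is near the share over all genes. For fluoxetine, 5 of 22 transcription factors and 5 of 23 effectors had an unadjusted limma p under 0.05. So did 1 of 20 secondary genes and 5 of 10 ERK feedback genes, against 961 of 16825 genes. Genes of a list move together, so these counts are not independent. With any 1 library of the arms compared left out, lithium called 0, and fluoxetine called 0 or 1 except without HT vehicle male 3 (2). All lithium libraries came from batch P40_L2 and all HT vehicle libraries from P40_L1, so lithium and batch cannot be told apart. The list genes with the lowest p were in the fluoxetine comparison. Nr4a3 differed by 0.70 (SE 0.16, limma adjusted p = 0.347), Klf4 by 0.52 (SE 0.11, limma adjusted p = 0.343) and Spred2, an ERK inhibitor, by 0.25 (SE 0.05, limma adjusted p = 0.343). In HT vehicle against WT vehicle the differences were -0.47 (SE 0.16) for Nr4a3, -0.08 (SE 0.11) for Klf4 and -0.24 (SE 0.05) for Spred2. For lithium against HT vehicle they were 0.53, 0.003 and 0.05 in the same order. Npas4 differed by -0.84 (SE 0.31, limma adjusted p = 0.742). It was at 1165 ± 353 in HT vehicle and 676 ± 278 in HT fluoxetine (SD, n = 6 each), and the ranges of the arms overlapped.

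Within arms, the ranges of Arc and Nr4a1 were widest in WT vehicle. Arc was at 1595 to 8744 there, against 4228 to 7343 in HT vehicle, 3344 to 6702 in HT fluoxetine and 5224 to 9220 in HT lithium. Nr4a1 was at 1458 to 6828 in WT vehicle, 2620 to 5430 in HT vehicle, 2784 to 4866 in HT fluoxetine and 3153 to 7265 in HT lithium. The arms overlapped for both genes. The 2 high libraries of WT vehicle were female and its 2 low ones male. Bulb scores in WT vehicle were 9.66 to 11.97 in females and 5.87 to 9.83 in males. The part that bulb content has in this sex difference was not tested.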

How the data were processed

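The authors deposited 1 table of normalised read signal for 18240 Ensembl genes in 24 libraries of polyadenylated RNA, made with a stranded kit per the labels' protocols. The build GRCm38 and the tools DESeq2 1.19.11, Salmon 0.11.2 and R 3.6.0 are listed without roles, per the submitters' processing notes. Values are whole multiples of a library's own step, so whole reads could be recovered for 100% of values within 0.01 of a read; in HT vehicle female 2 a read is worth about 1, and that column rests on its low values alone. The smallest gene mean was 1.63, so lower genes had been left out before deposit. GENCODE M21 named all but 13 genes.

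All work was on log2(value + 1), which understates changes of low genes, with genes kept at a mean of 10 or more (16825, or 16822 without the ranking genes). Tests were two-sided and used limma 3.58.1 (R 4.3.3; intensity trend) and Benjamini-Hochberg adjustment over all genes. The arms were fitted as 8 group means over 24 libraries. Count tests on recovered reads (edgeR 4.0.16 with TMM, DESeq2 1.42.0) were alternatives. No pair of libraries agreed within sampling noise (smallest chi-square per gene 4.53). The steps were tested on simulated data. The libraries, gene lists and tests were chosen with earlier results of these data known. Named were list genes that were called, up to 10 other called genes in each direction with a mean of at least 50, the 10 with the lowest p in the middle libraries and the 3 with the highest r; list genes that missed the call were named after their values were seen. The 22 lists cover 4 activity groups, 7 other pathways and 11 cell types.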

Additional observations from a re-analysis of the deposited data

Results flagged for a closer look

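In 40 sets of 6 libraries, 1 arm and 1 gene at a time, a library was picked out where its gap to the next value exceeded 0.625 of the range in its arm, which chance does in about 1 of 20 sets, so 2 among 40 is what chance gives. Junb in HT vehicle male 3 was at 2799 normalised reads, the next library of that arm at 2039 and the lowest at 1641. 1700016P03Rik in HT lithium male 1 was at 111.6, the next library of that arm at 66.37 and the lowest at 51.27. Junb is itself 1 of the genes that rank the libraries.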

How the results depend on the processing

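Leaving out 1 library at a time gave 35 to 188 genes called higher and 23 to 121 lower, where all 12 libraries gave 32 and 17. The count upward passed 1.5 times the full one without HT fluoxetine female 1 (188), HT lithium male 3 (107), WT vehicle female 1 (59), HT vehicle female 2 (51) and, at 1.5 times, WT vehicle male 2 (48); fewer libraries overlap less. Of the 13 list genes 12 or 13 kept their call each time, the lost gene being Ptgs2 or Adcyap1. Counts higher and lower were 21 and 7 without the bulb score, 12 and 5 for 8 libraries in each set, 17 and 8 at a mean of at least 50, 360 and 354 with arm as a further term, 217 and 169 in batch P40_L1 alone, 552 and 435 without libraries above a bulb score of 11, and 114 and 75 within matched bulb levels. The last 2 were chosen after seeing the data. Without a filter 26 were lower, and with a striatal score 27. The list genes that kept their call were 5 of 13 without the bulb score, 9 with 8 libraries in each set, 11 within bulb levels and 12 or 13 otherwise. The list genes called in all were 33 with arm as a term, where 2.14% of all genes were called higher. They were 34 without libraries above a bulb score of 11, where 3.28% of all genes were. With all 12 libraries and the bulb score alone, these values were 13 and 0.19%. The cut at 11 took away 4 of the 6 high and 1 of the 6 low libraries. With arm as a term, 1700016P03Rik fell to 0.97 and Ier2 to 0.67; the cause was not tested. The middle libraries gave 0 called genes in every alternative run.

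For the arms, HT against WT called 5 genes with the bulb score and 0 to 1 leaving out 1 library (1 without WT vehicle male 2). Fluoxetine called 4 with the bulb score, 16 with DESeq2 and 0 to 2 leaving out 1 library. Lithium called 0 with a pseudocount of 5, 0 with edgeR and 0 to 0 leaving out 1 library. Replicate numbers did not pair the libraries: same-numbered libraries of different groups had a median r of -0.018 over 84 pairs (31 above 0.1) and others 0.016 over 168. With the replicate number as a block, fluoxetine called 0, lithium 0, HT against WT 0 and sex 13. None of the called genes named changed sign in any alternative. Of list genes that were not called, Bdnf, Vgf and Homer1 did without the bulb score, and so did others. Among these were Sst (0.15 with and -0.40 without the bulb score), Nrn1 (0.14 and -0.30), Rgs4 (0.16 and -0.25) and Plk2 (0.09 and -0.25). Pim1 went the other way (-0.06 and 0.04).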
